A study of Mus musculus with 8 samples.

Results

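Origin licensing and firing genes are described here in mouse induced pluripotent stem (iPS) cells, that is, in cells reprogrammed to resemble those of the early embryo. The set holds 10 genes, taken by symbol from a deposited table of 34369 gene symbols: Orc1, Orc3, Orc4, Orc5 and Orc6 of the origin recognition complex, the loaders Cdc6 and Cdt1, the inhibitor Gmnn, and the firing kinase genes Cdc7 and Dbf4. All 10 passed the filter on low values, a mean of 1 FPKM over the 8 libraries, with 11949 genes in all. FPKM are fragments scaled to transcript length and to the size of the library. RNA-seq libraries had been made from 3 wild-type iPS cell lines, derived from littermate embryos, and from 5 lines described as independent and homozygous for the D257A substitution of Polg, called mutator lines below. The polymerase that copies mitochondrial DNA has its catalytic subunit from Polg, and D257A abolishes its proofreading, so that mitochondrial DNA gathers mutations. Both groups were grown with LIF on growth-arrested feeder cells and passaged once on gelatin before total RNA was taken. No age, passage number or reprogramming method is given for either group in the sources used here.

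Every replication origin must be prepared once, and only once, per cell cycle. The origin recognition complex (ORC) sits on DNA and, with the ATPase CDC6 and its partner CDT1, loads rings of the MCM helicase in late mitosis and G1, which is called licensing. Geminin, the product of Gmnn, binds CDT1 from S phase to mitosis and stops reloading, and the kinase CDC7, which works only with its regulatory subunit DBF4, then acts on loaded MCM rings so that the origin fires. Pluripotent stem cells divide fast with a short G1 phase and are known for abundant licensing factors.

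Mutator replicates 1 and 2 differed by about as little as 2 runs of 1 library would, and their column headers share a code (u6), so their mean was used and they counted as 1 sample. Their squared difference was 1.31 times that of fragment sampling, against 4.79 to 19.5 times for the 12 remaining pairs of same-group libraries. The comparison is therefore of 4 mutator with 3 wild-type samples, and the lines may still share embryos, since the 3 wild-type headers carry 1 number (7a, 7b and 7c). P-values measure the spread between these samples, which may in part be technical. The depth of the libraries is not in the table. The wild-type samples had 9.48 ± 0.539 FPKM of Polg (SD, n = 3) and the mutator samples 10.2 ± 1.93 FPKM (SD, n = 4). This does not test the genotype, since the substitution leaves the transcript in place. The pluripotency markers were present in all libraries. Pou5f1 was at 102.9 to 291 FPKM, with every mutator library below every wild-type library, but the markers did not all go this way, as given below.

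The stretch of DNA before the RefSeq start of Orc1, Cdc6 and Cdt1 is shown first. These are the ORC subunit and the loaders that the cell cycle controls most closely, and their transcripts gave unlike values. RefSeq promoter windows (GRCm38.p6, 250 bases before to 50 after a start) were matched for 9 of the 10 genes, Gmnn being the exception, and gave 12 windows. Capitals mark an E2F motif or a CCAAT box, searched on both strands, and each line reads 5′ to 3′ on the strand of the gene. The stretches of Cdc6 and Cdt1 hold no match and so no capitals. GENCODE starts Cdc6 earlier, at 98907801, so its stretch and window lie inside that gene and the DNA before that start was not searched. GENCODE also starts Orc1 earlier, at 108579423, so the E2F motif shown for Orc1 lies inside the gene.
Orc1, chr4:108579337-108579434, plus strand, ending 20 bases before the RefSeq start: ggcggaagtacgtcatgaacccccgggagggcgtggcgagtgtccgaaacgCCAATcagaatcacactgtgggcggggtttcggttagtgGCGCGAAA
Cdc6, chr11:98908011-98908150, plus strand, ending at the base before the RefSeq start: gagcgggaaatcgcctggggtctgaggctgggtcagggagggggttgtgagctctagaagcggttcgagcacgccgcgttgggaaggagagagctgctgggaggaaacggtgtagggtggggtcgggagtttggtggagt
Cdt1, chr8:122567875-122568014, plus strand, ending at the base before the RefSeq start: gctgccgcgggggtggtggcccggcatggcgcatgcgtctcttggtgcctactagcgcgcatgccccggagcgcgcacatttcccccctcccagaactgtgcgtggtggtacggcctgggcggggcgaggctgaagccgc

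The E2F transcription factors switch on many S phase genes. Of the 3 E2F motifs searched, TTTCGCGC stood in 1 gene of the set (Orc1, opposite strand, bases -27 to -20), TTTGGCGC in 1 (Cdt1, same strand, bases 33 to 40) and TTCCCGCC in 2 (Orc4, bases -141 to -134, and Cdc7, bases -36 to -29, both on the opposite strand and each in 1 window of a gene with several listed starts). These motifs were found in 0.374%, 0.585% and 2.52% of the 27025 genes that have a window, and any of the 3 in 3.39%, against 4 of the 9 matched genes here. A CCAAT box, which overlaps none of these E2F matches, stood in Orc1, Orc4 and Orc6, against 41.1% of all genes. TTTGAA, the letters of the cell cycle homology region, stood in Cdc7 and Dbf4, against 20.2%. The windows of Cdc6, Orc3 and Orc5 held none of these letters. The matches describe the sequence, and their relation to the levels below was not tested. Of the 4 genes with any of the 3 E2F motifs searched, Orc1 was lower in every mutator sample than in any wild-type sample. Orc4, Cdt1 and Cdc7 overlapped. Gmnn, without a window, could not be placed.

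ORC subunits are taken first. In mutator cells Orc6 fell to 0.588 times its wild-type level, and it was the 1 gene of the 10 to pass the test, by which 4.54% of all genes fell. Orc1 and Orc5 were at 0.583 and 0.609 times the wild-type mean with every mutator sample below every wild-type sample, as in 16.1% of all genes, but their adjusted p was above 0.05. Orc3 and Orc4 measured 0.864 and 0.888 times the wild-type mean with groups that overlapped. In bulk RNA, fewer cells that transcribe a gene and less transcript per cell cannot be told apart. Test values are from limma on log2(FPKM + 1) with Benjamini-Hochberg adjustment over all 11949 genes, changes are mutator minus wild type on that scale, and 95% intervals are not adjusted.

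Orc6 encodes the smallest ORC subunit, which joins the complex loosely (chromosome 8, 85299632 to 85308278, ENSMUSG00000031697). It measured 44.4, 41.3 and 37.8 FPKM in wild-type replicates 1 to 3 and 20.7, 21.2, 22.6, 26.5 and 26.9 FPKM in mutator replicates 1 to 5. The groups lie far apart, with the highest mutator library well under the lowest wild-type library. The means were 41.2 ± 3.29 FPKM (SD, n = 3) and 24.2 ± 2.94 FPKM (SD, n = 4), and the log2 change was -0.75 ± 0.17 (standard error, limma adjusted p = 0.042). The call rests on every wild-type line: without wild-type replicate 1, 2 or 3 the change was -0.69, -0.74 and -0.80 with limma adjusted p of 0.115, 0.149 and 0.114. Without mutator replicate 3, 4 or the 1 and 2 pair the limma adjusted p was 0.0512, 0.0664 and 0.0764. The first 171 bases of Orc6 are shared with Vps35 on the other strand, and the strand setting of the counting is not given, so a small part of its reads could belong to that gene, which overlapped between the groups.

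Orc1 encodes the ATPase that carries the catalytic site of the complex and is degraded in S phase in human cells (chromosome 4, 108579423 to 108614833, ENSMUSG00000028587). It measured 13.2, 15.2 and 11 FPKM in the wild-type replicates and 5.76, 5.58, 9.24, 8.36 and 7.39 FPKM in the mutator replicates. Mutator replicates 1 and 2 were lowest and replicate 3 highest, still under wild-type replicate 3. Its log2 change was -0.72 ± 0.20 (standard error, limma adjusted p = 0.0597, interval -1.16 to -0.27).

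Orc5 encodes another ATPase-fold subunit of the ring (chromosome 5, 22486485 to 22550429, ENSMUSG00000029012). Orc5 wild-type values were 23, 19.8 and 16.4 FPKM and its mutator values 10.2, 9.74, 11.4, 12.2 and 14.5 FPKM. The groups did not overlap, although mutator replicate 5 came close to wild-type replicate 3. On the log2 scale the change was -0.67 ± 0.19 (standard error, limma adjusted p = 0.0621, interval -1.10 to -0.24). A processed pseudogene, Gm15421, lies inside Orc5 on the same strand, at a mean of 1.59 FPKM.

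Orc4, also an ATPase-fold subunit, was the most variable of the 10 among the mutator samples (chromosome 2, 48902824 to 48950277, ENSMUSG00000026761). It measured 55.2, 42 and 48.4 FPKM in the wild-type and 52.9, 51.8, 19.4, 34.4 and 66.4 FPKM in the mutator replicates. Mutator replicate 3 had less than any other library and mutator replicate 5 more than any other, so the groups overlapped throughout. The coefficient of variation was 47.7% over the mutator and 13.6% over the wild-type samples. The log2 change of Orc4 was -0.30 (limma adjusted p = 0.628), and its interval of -1.18 to 0.58 allows a change in either direction. Without mutator replicate 3 it was 0.03 (limma adjusted p = 0.953). Orc4 overlaps the start of Mbd5 and the end of Acvr2a on the other strand, so its values are uncertain by reads of those genes, at mean levels of 6.15 and 3.82 FPKM.

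Orc3, a subunit of the ORC core, was steadier (chromosome 4, 34570796 to 34614944, ENSMUSG00000040044). It measured 33.4, 30 and 27.7 FPKM in the wild-type and 32.5, 30.4, 19.4, 24 and 30.1 FPKM in the mutator replicates. Mutator replicates 3 and 4 lay below the wild-type range, and the pair and replicate 5 lay within it. The log2 change was -0.22 ± 0.21 (standard error, limma adjusted p = 0.489, interval -0.70 to 0.25). Without mutator replicate 3 it was -0.09.

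Because these 5 transcripts did not move together, their proportions differed between samples. Orc4 made up 28.3% to 34.2% of the summed FPKM of the 5 genes in the wild-type samples and 43.5%, 23.6%, 32.6% and 45.7% in the mutator 1 and 2 pair and mutator replicates 3, 4 and 5. Orc6 made up 26.2% to 27.9% in wild-type samples and 17.4%, 27.6%, 25.1% and 18.5% in the same 4 mutator samples. The pair and mutator replicate 5 thus had an ORC set poor in Orc6 and rich in Orc4, while mutator replicate 3, at a sum of 81.9 FPKM against 141 to 169 in wild-type samples, was below the wild-type range in all 5 genes but had an Orc6 share inside that range. The ratio of Orc1 to the mean of the other 4 subunits is free of library scaling. It was 0.357, 0.477 and 0.366 in the wild-type samples and 0.234, 0.524, 0.368 and 0.249 in the mutator samples. The mean log2 ratio differed by -0.28, with overlapping groups (exact two-sided permutation p = 0.514, and 0.571 adjusted over 4 ratios). It moved to -0.15 without wild-type replicate 2, to -0.15 without mutator replicate 5, to -0.12 without the mutator pair and to -0.51 without mutator replicate 3. For this design of 4 against 3 samples an exact p cannot go below 0.057.

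**Figure D1:**
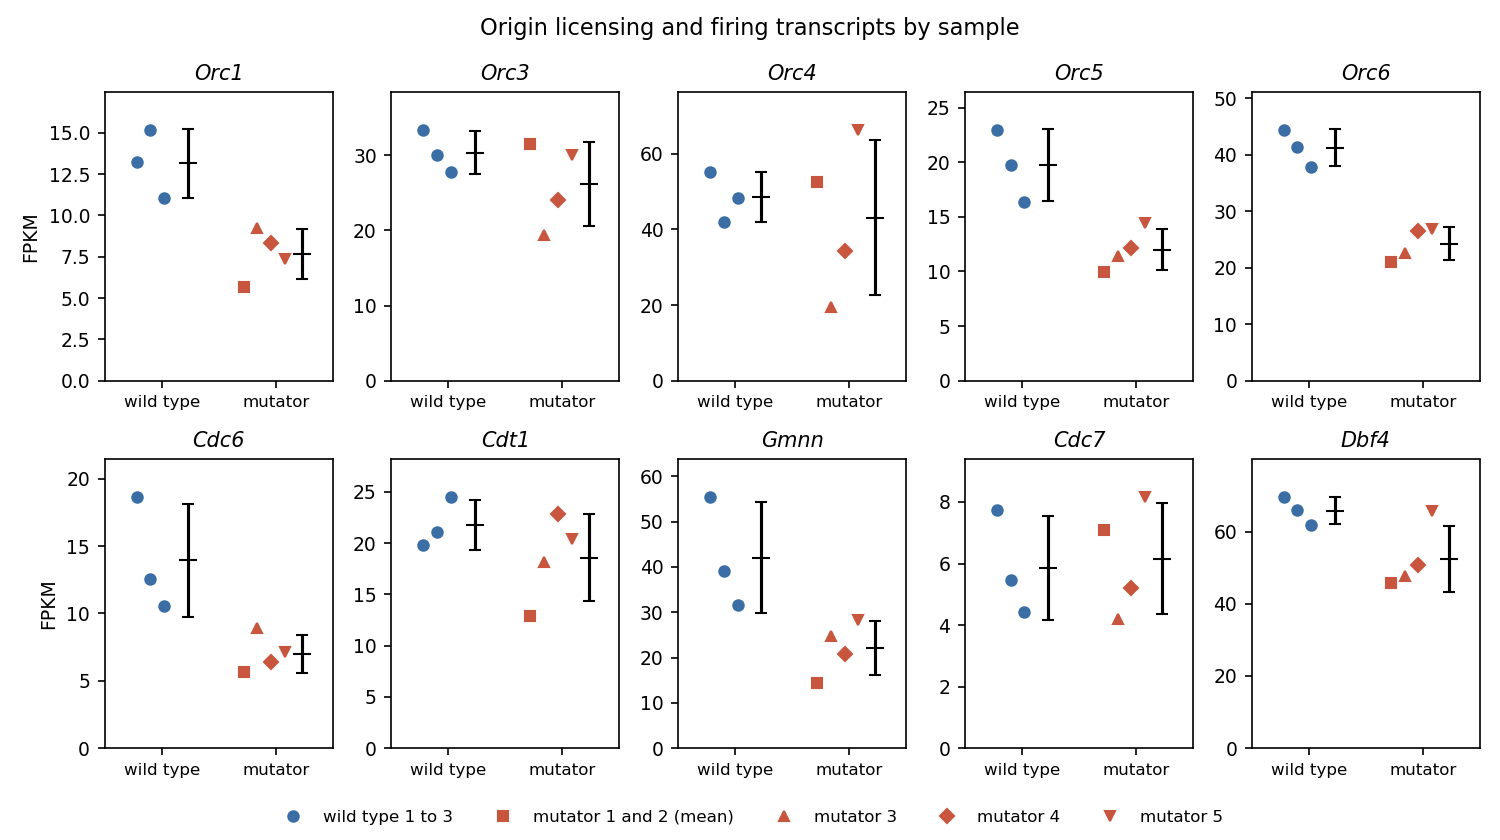
FPKM of the 10 genes (vertical axes, each starting at 0) in 3 wild-type samples (blue circles) and 4 mutator samples (red symbols, replicates 1 and 2 as their mean). Black bars are means with SD. In Orc1, Orc5, Orc6, Cdc6 and Gmnn every mutator sample sits below every wild-type sample, and Orc4 spreads from 19.4 to 66.4 FPKM among the mutator samples.

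The loaders and their inhibitor split in the same way. Cdc6 and Gmnn were at 0.503 and 0.524 times the wild-type mean, the lowest fractions of the 10. In both, every mutator sample lay below every wild-type sample, as in 16.1% of all genes. Cdt1 was at 0.853 times and overlapped. None of these 3 passed the test at 0.05 (0 by limma, with 2 of them at an unadjusted p below 0.05, as 30.3% of all genes were in either direction).

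Cdc6 encodes the ATPase that completes the ring around DNA with ORC (chromosome 11, 98907801 to 98923940, ENSMUSG00000017499). It measured 18.6, 12.6 and 10.6 FPKM in the wild-type and 5.42, 5.81, 8.9, 6.37 and 7.14 FPKM in the mutator replicates. Wild-type replicate 1 stood above the other 2, and mutator replicate 3 came nearest to the wild-type range. The log2 difference of Cdc6 was -0.88 ± 0.23 (standard error, limma adjusted p = 0.0522, interval -1.40 to -0.36). It passed in 6 of 22 alternative settings, among them without mutator replicate 3 (limma adjusted p = 0.0438, over a range of 0.00938 to 0.474 for all 22). Without wild-type replicate 1 the difference was -0.66 (limma adjusted p = 0.136).

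Gmnn, the geminin gene (chromosome 13, 24751845 to 24761923, ENSMUSG00000006715), measured 55.4, 39.2 and 31.5 FPKM in the wild-type and 14.8, 13.9, 24.8, 20.7 and 28.2 FPKM in the mutator replicates. The pair was lowest and mutator replicate 5 came near wild-type replicate 3. The log2 change was -0.90 ± 0.28, the largest of the 10 (standard error, limma adjusted p = 0.0773, interval -1.54 to -0.27). Without wild-type replicate 1, which had the highest Gmnn, the change was -0.69 (limma adjusted p = 0.199).

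Cdt1 encodes the partner that brings MCM to ORC (chromosome 8, 122568015 to 122573554, ENSMUSG00000006585). It measured 19.8, 21.1 and 24.5 FPKM in the wild-type and 12.8, 12.9, 18.2, 22.9 and 20.4 FPKM in the mutator replicates. The pair stood apart below all other libraries, and mutator replicates 4 and 5 lay inside the wild-type range. For Cdt1 the log2 change was -0.24 ± 0.22 (standard error, limma adjusted p = 0.474, interval -0.74 to 0.25). It was -0.08 without the mutator pair and -0.16 without wild-type replicate 3. A read-through gene, Gm20388, spans Cdt1 on the same strand at a mean of 6.33 FPKM, so the division of reads between the 2 is uncertain.

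Geminin works by binding CDT1, so the transcripts were also compared as a ratio within each sample. Gmnn over Cdt1 was 2.80, 1.86 and 1.29 in wild-type replicates 1 to 3 and 1.12, 1.36, 0.905 and 1.38 in the mutator pair and replicates 3 to 5. The wild-type samples alone spanned more than the mutator samples did, and wild-type replicate 3 lay below 2 of the 4 mutator samples. The mean log2 ratio was 0.68 lower in mutator samples, at 0.23 against 0.91 (exact two-sided permutation p = 0.171, adjusted p = 0.457), with 2 of 4 mutator samples below all wild-type samples. The difference was -0.40 without wild-type replicate 1 and -0.96 without wild-type replicate 3. Cdc6 over Orc1, the 2 cell cycle regulated ATPases, was near 1 in most samples, at 1.41, 0.828 and 0.957 in wild-type and 0.991, 0.963, 0.762 and 0.965 in mutator samples. Its mean log2 ratio differed by -0.18 (exact two-sided permutation p = 0.571, adjusted p = 0.571), and by 0.04 without wild-type replicate 1.

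**Figure D2:**
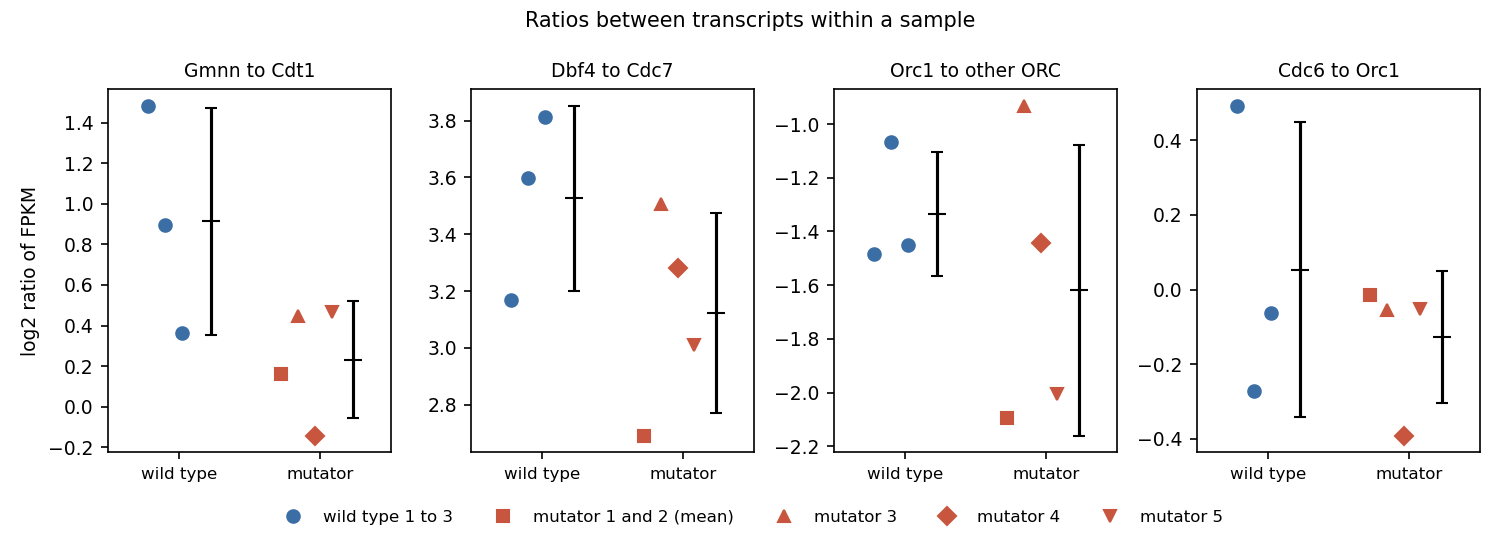
Log2 ratios of FPKM within each sample (vertical axes) for 4 pairs of transcripts or subunits, in 3 wild-type (blue) and 4 mutator samples (red), with black bars for means and SD. The groups overlap in all 4 panels, and the wild-type samples spread from 0.36 to 1.48 in Gmnn over Cdt1.

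The firing kinase transcripts overlapped between the groups. Dbf4 was the most abundant of the 10 and Cdc7 the least. Dbf4 (chromosome 5, 8396973 to 8422716, ENSMUSG00000002297) measured 69.5, 66.1 and 61.9 FPKM in the wild-type and 46.5, 45.2, 47.6, 50.7 and 65.7 FPKM in the mutator replicates. Mutator replicates 1 to 4 lay below all wild-type samples and replicate 5 lay among them. The means were 65.8 ± 3.81 FPKM (SD, n = 3) and 52.4 ± 9.05 FPKM (SD, n = 4), and the log2 change was -0.34 ± 0.19 (standard error, limma adjusted p = 0.272, interval -0.78 to 0.11).

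Cdc7, the catalytic subunit (chromosome 5, 106964322 to 106984432, ENSMUSG00000029283), measured 7.72, 5.46 and 4.41 FPKM in the wild-type and 7.02, 7.17, 4.19, 5.21 and 8.16 FPKM in the mutator replicates. The 2 groups covered almost the same range. The log2 change was 0.06 ± 0.25 (standard error, limma adjusted p = 0.901), and its interval of -0.51 to 0.62 allows a change in either direction. Dbf4 over Cdc7 was 9.0, 12.1 and 14.0 in wild-type and 6.46, 11.4, 9.73 and 8.05 in mutator samples. The mean log2 ratio was 3.53 in wild-type and 3.12 in mutator samples, a difference of -0.40 (exact two-sided permutation p = 0.229, adjusted p = 0.457), with 2 of 4 mutator samples below all wild-type samples. It was -0.26 without wild-type replicate 3 and -0.26 without the mutator pair.

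Over the set, 1 gene of 10 fell and 0 rose (limma, with 5 lower and 0 higher at an unadjusted p below 0.05, as 30.3% of all genes were in either direction). Of all genes tested, 4.54% fell and 2.95% rose by the same rule, and a single call among 10 genes does not set the list apart from that background. In 5 of the 10 genes the 4 mutator samples all lay below the 3 wild-type samples, against 16.1% of all genes, and in 0 of the 10 all above, against 12.4%. The median log2 change of the 10 was -0.50, against -0.03 over all genes, and 9 of the 10 were below 0 (5 of 10 when libraries were rescaled to TPM). TPM, in which each library sums to the same total, moved the median of all genes to 0.37. Relative to that median 9 of the 10 were below 0 again, at a median of -0.38, with Orc6 at -0.61, Orc1 at -0.61, Orc5 at -0.55, Cdc6 at -0.77 and Gmnn at -0.77. No gene of the set passed under TPM (0 by limma, and 0 at an unadjusted p below 0.05).

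**Figure D3:**
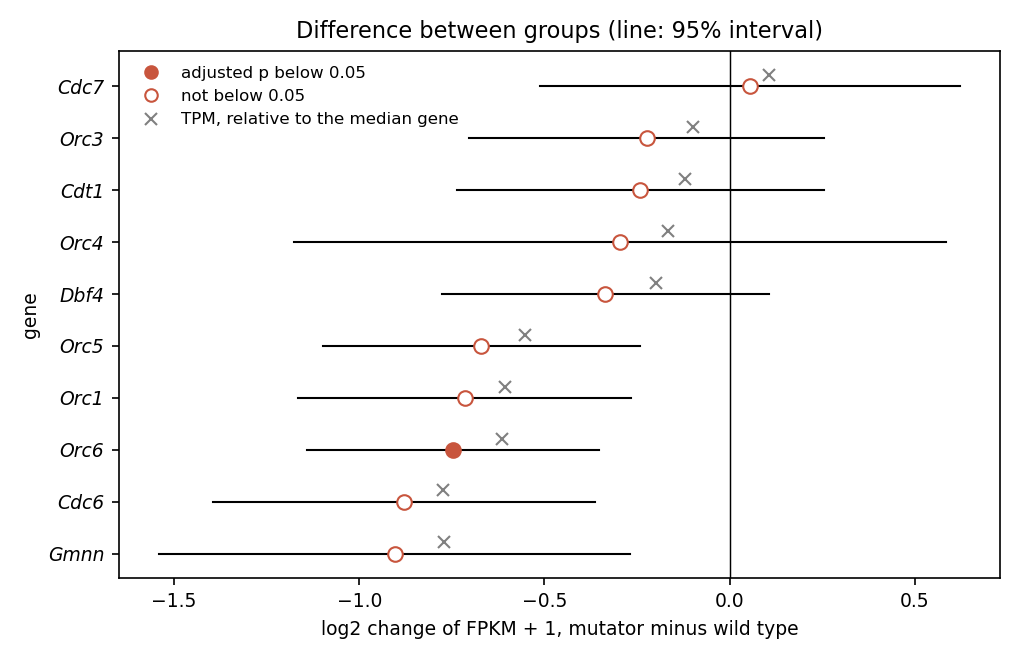
Log2 change of FPKM + 1, mutator minus wild type (horizontal axis), for each of the 10 genes, with 95% intervals as lines. The filled point is Orc6 at -0.75, which passed at an adjusted p below 0.05, and crosses give the TPM change relative to the median gene, which lies below 0 for all but Cdc7.

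Levels could be ranked because FPKM are per length. In wild-type cells the order of mean FPKM was Dbf4, Orc4, Gmnn, Orc6, Orc3, Cdt1, Orc5, Cdc6, Orc1 and Cdc7. Dbf4 stood above Orc4, Orc6 above Orc3, Orc3 above Cdt1 and Orc1 above Cdc7 without overlap of their ranges, and the other neighbours in that order overlapped. In mutator cells the order was Dbf4, Orc4, Orc3, Orc6, Gmnn, Cdt1, Orc5, Orc1, Cdc6 and Cdc7, and Orc5 above Orc1 was the 1 step without overlap. Gmnn, Orc6 and Orc3 stood in another order in the 2 groups, but their ranges do not separate Gmnn from Orc6: Gmnn was the higher of the 2 in wild-type replicate 1 alone among wild-type samples and in mutator replicates 3 and 5. Within the groups the libraries had a common order too. Wild-type replicate 1 was the highest wild-type library for 8 of the 10 genes (not Orc1 and Cdt1), and the mutator pair was the lowest mutator sample for 7 of the 10. Mutator replicate 5 was the highest mutator sample for 6 of the 10, and mutator replicate 3 the lowest for Orc3, Orc4 and Cdc7.

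**Figure D4:**
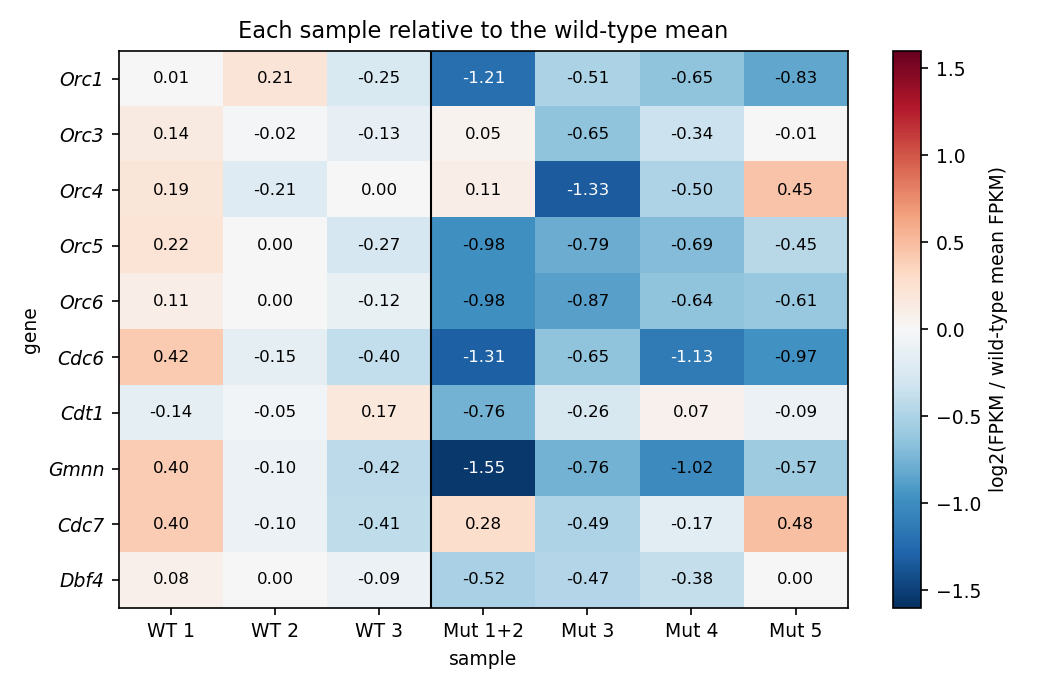
Log2 of FPKM over the wild-type mean (colour and printed value) for each gene (rows) in 3 wild-type and 4 mutator samples (columns, replicates 1 and 2 as their mean). The lowest value is Gmnn in the mutator pair, at -1.55, while Orc4 is lowest in mutator replicate 3, at -1.33, and above the wild-type mean in mutator replicate 5, at 0.45.

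Markers of other cells differed between the mutator samples. Feeder fibroblast markers had a mean log2 level of 2.31 to 2.55 in wild-type samples, 3.54 in the mutator pair, 3.79 in mutator replicate 3, and 2.5 and 2.66 in mutator replicates 4 and 5. All 16 of these markers lay above the wild-type range in the pair and 15 in mutator replicate 3, none was listed at 0, and their summed level was 182 to 199 FPKM in wild-type and 214 to 480 FPKM in mutator libraries. Primitive endoderm markers had a mean of 0.875 to 0.95 in wild-type samples and 1.63, 1.64, 1.07 and 2.88 in the pair and mutator replicates 3 to 5. They summed to 23.8 to 27 FPKM in wild-type and 33 to 257 FPKM in mutator libraries, and 3 of the 14 (Sox17, Foxa2 and Afp) were listed at 0 in some library. The 12 pluripotency markers summed to 926 to 1235 FPKM in wild-type and 615 to 826 FPKM in mutator libraries, while their mean log2 level overlapped. Of these 12, 7 had a log2 change below 0, and all mutator samples lay below the wild-type range in 2 and above it in 1. That 1 was Tbx3, the only pluripotency marker to pass, at a mean of 4.06 FPKM in wild-type and 12.2 FPKM in mutator samples (limma adjusted p = 0.0388). The 4 Y-linked genes summed to 68.6 to 143 FPKM in the wild-type libraries, 90.6 and 76.7 FPKM in mutator replicates 3 and 5, and 1.65 to 6.6 FPKM in mutator replicates 1, 2 and 4. In mutator replicates 4 and 5 alone, the 2 samples with the lower mean feeder level, though the summed level of replicate 5 was 358 FPKM, the log2 changes of Orc1, Orc5, Orc6, Cdc6 and Gmnn were -0.67, -0.52, -0.60, -0.91 and -0.74. In mutator replicates 3 and 5 alone, whose Y-linked levels were in the wild-type range, they were -0.60, -0.57, -0.71, -0.70 and -0.61. None of the 10 genes passed in either subset (0 by limma, with 5 and 3 lower at an unadjusted p below 0.05), and 16 and 4 genes of the whole table did. Unadjusted and in either direction, 2845 and 2554 of all 11949 genes passed in these subsets. With the mean feeder marker level as a covariate the same 5 changes were -0.68, -0.49, -0.57, -0.91 and -0.72, and with the Y-linked level -0.63, -0.55, -0.72, -0.62 and -0.55 (0 genes of the set passed by limma in either, and 3 and 4 were lower unadjusted). With the mean endoderm marker level as a covariate they were -0.65, -0.82, -0.80, -0.93 and -1.16 (0 genes of the set passed by limma, and 6 were lower unadjusted). Of all 11949 genes, 2215, 2625 and 2580 passed unadjusted, in either direction, with the feeder, Y-linked and endoderm covariates. The part of these markers in the results was not tested further.

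By GENCODE gene starts, in 4 of the 10 genes a protein-coding gene starts on the opposite strand within 500 bases, so that the 2 share a promoter region. Orc4 is not among them, although 1 of its RefSeq starts (48949267) lies within 500 bases of the start of Mbd5 (48949508). Orc3 and Rars2, a mitochondrial arginyl-tRNA synthetase gene, start 13 bases apart. Rars2 measured 21.1, 18.3 and 17.9 FPKM in wild-type samples and 11.5, 10.7, 9.03 and 15.2 FPKM in the mutator samples. It lay below the wild-type range in every mutator sample although Orc3 overlapped (log2 change -0.69 for Rars2, limma adjusted p = 0.0636). For Orc6 and Vps35, a retromer gene, it was the reverse, since Vps35 overlapped with a log2 change of -0.25 (limma adjusted p = 0.583). Orc1 and Prpf38a, a splicing factor gene 87 bases away, both lay below the wild-type range in every mutator sample, at -0.72 and -0.58. Dbf4 and the mitochondrial carrier gene Slc25a40 both overlapped, at -0.34 and -0.25. The differences within these pairs were not tested.

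Lists chosen for their function gave the steps around licensing. Their counts stand beside 4.54% of all genes that fell, 30.3% at an unadjusted p below 0.05 in either direction, and 16.1% with every mutator sample below every wild-type sample. Their 6 calls in all went to 0 without any 1 wild-type line or without the mutator 1 and 2 pair, and to 1 without mutator replicate 4. Of 7 further ORC and licensing genes tested, 1 fell and 0 rose (limma, with 2 lower and 0 higher at an unadjusted p below 0.05), at a median log2 change of -0.46. The gene that fell was Orc2, the remaining core subunit of ORC. It measured 36.2, 32.6 and 33.3 FPKM in wild-type samples and 15.3, 12.4, 20.1 and 21.2 FPKM in the mutator pair and replicates 3 to 5, a log2 change of -0.97 (limma adjusted p = 0.04). Of the 6 MCM helicase genes 1 fell and 0 rose (5 lower and 0 higher unadjusted), at a median of -0.66, with 5 of the 6 lower in every mutator sample than in any wild-type sample. Mcm5, a subunit of the ring that ORC, CDC6 and CDT1 load, fell from 37.4 ± 6.54 FPKM (SD, n = 3) to 20.0 ± 3.81 FPKM (SD, n = 4), a log2 change of -0.87 (limma adjusted p = 0.0443).

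Of 13 genes for helicase activation and origin firing, 2 fell and 0 rose (8 lower and 0 higher unadjusted), at a median of -0.51. Gins4, a subunit of the GINS complex that turns MCM rings into active helicases, fell from 23.5 ± 6.69 to 11.9 ± 1.48 FPKM (log2 change -0.90, limma adjusted p = 0.0424). Pole2, for a subunit of the leading strand polymerase, fell from 10.04 ± 0.75 to 5.64 ± 1.01 FPKM (log2 change -0.75, limma adjusted p = 0.0418). Pole, its catalytic partner, measured 13.6 ± 1.57 and 14.5 ± 0.989 FPKM. Of 7 CDK and cyclin genes that permit or block licensing 2 fell and 0 rose (5 lower and 0 higher unadjusted), at a median of -0.74, namely the cyclin E genes Ccne1 and Ccne2 at -1.49 and -1.22 (limma adjusted p = 0.0374 and 0.0205).

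Genes upstream of the set gave no call. Of 9 genes listed as ubiquitin ligase genes that limit licensing factors, 0 fell and 0 rose (limma, with 3 lower and 1 higher at an unadjusted p below 0.05), at a median of -0.12. That median is the value of Rif1, which was missing in wild-type replicates 1 and 2 and mutator replicates 3 and 4. The list is mixed: Rif1 is not a ubiquitin ligase gene, and Fbxo5, 1 of the 3 lower, encodes an inhibitor of a ubiquitin ligase. Cul4a, a scaffold of the ubiquitin ligase that destroys CDT1 in S phase, measured 8.72 ± 0.954 FPKM (SD, n = 3) and 13.0 ± 0.903 FPKM (SD, n = 4) with all mutator samples above (limma adjusted p = 0.0645), and Skp2, of another CDT1 ligase, 9.20 ± 1.64 and 4.89 ± 1.56 FPKM with all below (limma adjusted p = 0.0686). Of 13 E2F and RB family genes 0 fell and 0 rose (2 lower and 1 higher unadjusted), at a median of -0.19. Tfdp1, the usual dimer partner of E2F, measured 23.4 ± 3.46 and 13.7 ± 3.36 FPKM (limma adjusted p = 0.0665) and E2f2 1.63 ± 0.38 and 0.701 ± 0.257 FPKM (limma adjusted p = 0.0854). The geminin relatives Gmnc and Mcidas have no row under these symbols.

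**Figure D5:**
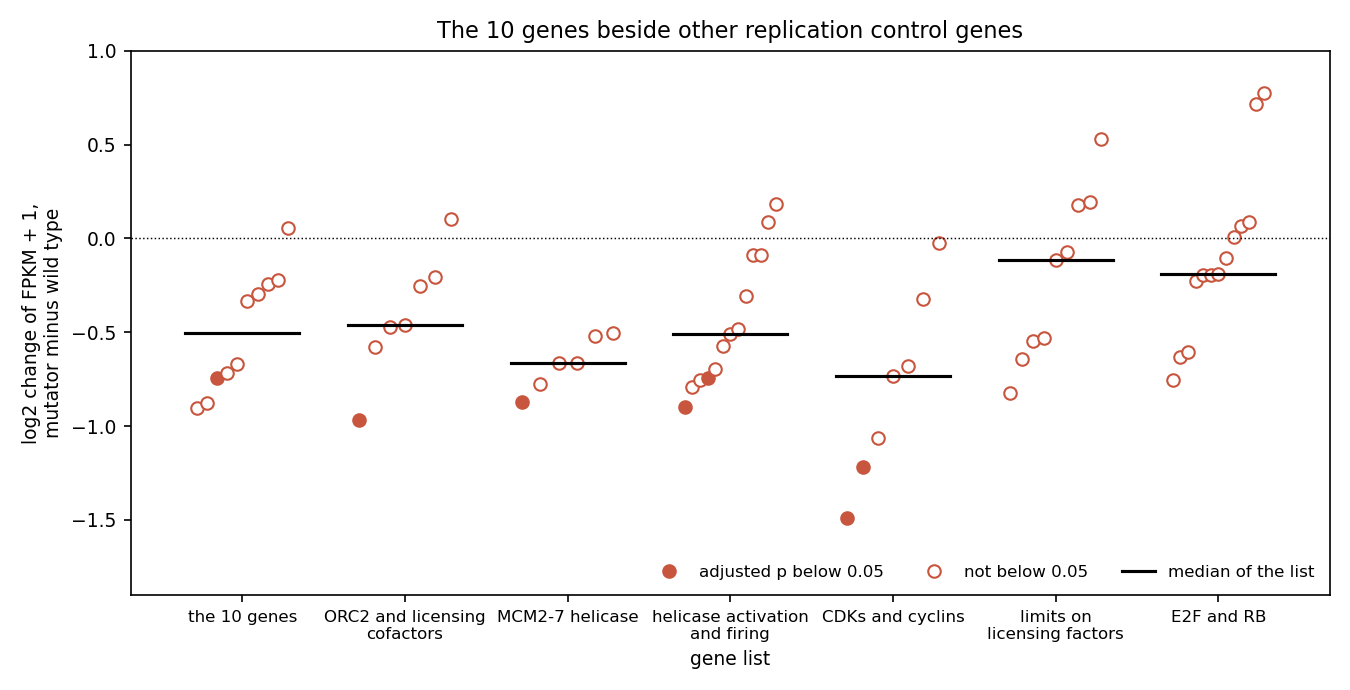
Log2 change of FPKM + 1, mutator minus wild type (vertical axis), for the 10 genes and 6 lists of related genes (horizontal axis). Each point is a gene, filled where the adjusted p was below 0.05. Black lines are list medians, from -0.74 for CDKs and cyclins to -0.12 for the mixed list labelled limits on licensing factors.

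By their values over the 7 samples, the genes most like Orc6 were Fastkd2, for a mitochondrial RNA-binding protein, Ipo11, for an importin, and Cops5, for a subunit of the COP9 signalosome. After each gene was centred on its own mean, the root mean square difference in log2(FPKM + 1) from Orc6 was 0.071, 0.072 and 0.074 over the 7 samples, among 10438 genes compared. Cops5 measured 39.9, 41.9 and 36.2 FPKM in wild-type samples and 18.3, 21.4, 22.7 and 24.3 FPKM in the mutator samples, close to the values of Orc6. Within the set, Orc5 came nearest to Orc6, at 0.094, and Orc4 was farthest, at 0.537.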

How the data were processed

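Values were FPKM, which the authors deposited as 1 column per library and 1 row per gene; STAR and Cufflinks are named in the submitters' processing notes, and versions, build, annotation, strandedness and depth are not given in the sources used here. Rows of the 265 symbols found on several rows were summed and 31 missing cells stayed missing. Count tests were not applied to FPKM.

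Samples were grouped by title. Mutator replicates 1 and 2 were compared over single-transcript protein-coding genes, with fragments inferred from whole steps in 116 low genes (the step of mutator replicate 1, applied to all libraries), and averaged. The main test, limma 3.58.1 (R 4.3.3), was fitted to log2(FPKM + 1) of genes whose mean reached 1 FPKM (trend, Benjamini-Hochberg, threshold 0.05). The fit was also run on simulated data with independent noise in each gene, which need not hold for these samples. The pseudocount understates changes of low genes. Ratios used exact permutation tests. Positions are from GENCODE M21 (GRCm38), promoters from RefSeq. Tables were handled with pandas 2.3.3 and numpy 2.4.6 under Python 3.11.15, ratios tested with SciPy 1.17.1, and plots drawn with matplotlib 3.10.9. Same-numbered samples were checked by the correlation of their deviations and not treated as paired. Genes named outside the set were, per list, up to 4 called genes with the smallest p or 2 where none was called, and the 3 genes nearest to each called member; Pole and the promoter neighbours were named after their values were seen. The members and lists were chosen with earlier results of these data known. Alternatives covered scaling, pseudocount, filter, weights, covariates and left-out libraries.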

Additional observations from a re-analysis of the deposited data

Results flagged for a closer look

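In the log2 ratio of Cdc6 to Orc1, mutator replicate 4 lay apart from the other mutator samples, at -0.392 against -0.0542 to -0.0137, a gap larger than chance usually gives among 4 samples. This was 1 of 14 groups of 4 mutator samples examined, and chance flags about 1 in 20.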

How the results depend on the processing

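Under 22 alternatives, Orc1, Orc5, Orc6, Cdc6 and Gmnn stayed below 0 in all, and Orc6 passed in 8. The set, with 1 gene called, gave 2 with a pseudocount of 0.1 (Orc6 and Cdc6), 4 at a mean of at least 5 FPKM (Orc1, Orc5, Orc6 and Cdc6), and the same 4 and Gmnn, 5 in all, with median-of-ratios factors, 8 separate libraries or array weights. It gave 0 with no filter, TPM, a feeder, Y-linked or primitive endoderm covariate, without the mutator pair, without mutator replicates 1, 2 and 3, and without 1, 2 and 4 (the endoderm covariate and the last 2 subsets were chosen after seeing the data), and 0 to 1 with single libraries left out (0 without wild-type replicate 1, 2 or 3 or mutator replicate 4, and Cdc6 in place of Orc6 without mutator replicate 3). At an unadjusted p below 0.05 these settings gave 3 to 7 genes of the set, all lower, except TPM with 0. Over all 11949 genes, in either direction, they gave 2215 (feeder covariate) to 5250 (array weights), with 3450 under TPM. The 2 changed filters gave 5458 of 27108 genes (no filter) and 1978 of 6221 (mean of at least 5 FPKM). The count of 7 came with the replicate block, described below, where 4307 of 11949 genes passed unadjusted. The whole table, with 895 calls, gave 2102 with median-of-ratios factors, 2203 with 8 libraries, 3618 with array weights, 4 with no filter, 3 with the feeder covariate, 0 with the Y-linked and 0 with the endoderm covariate, 5 without the pair, 16 and 4 in the subsets and 2 to 1096 with single libraries left out (5, 2 and 2 without wild-type replicate 1, 2 or 3, and 241 and 581 without mutator replicate 4 or 5). Of the 55 genes of 6 related lists, 6 were called, against 16, 18 and 23 with median-of-ratios factors, 8 libraries and array weights, 1 under TPM (higher, with all 6 lower calls lost), 0 with no filter, each covariate, the pair left out or either subset, and 0 to 6 with single libraries left out. Under TPM the calls of the whole table moved from 542 lower and 353 higher to 21 and 1092.

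With the replicate block, 0 genes of the set, 0 of the lists and 1 of the table were called. Deviations of same-numbered samples correlated at 0.013, -0.012 and 0.051, so the numbers do not pair samples.

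Under TPM Orc3, Orc4, Cdt1 and Dbf4 turned to 0.27, 0.2, 0.25 and 0.17. Orc4 was 0.11 with the feeder covariate and -0.55 to 0.03 with single libraries left out. Cdc7 was -0.24 with the endoderm covariate, -0.02 without the pair and -0.1 to 0.24 with single libraries left out. The Cdc6 to Orc1 ratio ranged from -0.34 to 0.04. The cause of these shifts was not tested, but left-out libraries also leave fewer samples.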
